A study of Homo sapiens with 6 samples.

Results

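Homologous recombination restores a broken chromosome by copying the intact sister, and the Fanconi pathway unhooks DNA crosslinks and hands the resulting break to the same machinery. BRCA1 and BRCA2 belong to it, and tumours that lose it tend to respond to platinum drugs and PARP inhibitors, which is why its genes are read closely in ovarian carcinoma. The transcripts described here are 35 genes of that pathway, chosen by name as a fixed list and matched to the rows of a count table by gene symbol. Of these 35, 32 had a row among 11957 in all. RAD50, BRCA2 and FANCM had none and were not analysed here, so the list lacks 1 subunit of the break sensor, a central mediator of recombination, and 1 Fanconi translocase.

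The cells were OVCA433, an established human ovarian cancer line, in 6 poly(A)-enriched libraries, 3 labelled U2AF2 SI and 3 labelled U2AF2 SINC. U2AF2 is the large subunit of a splicing factor that binds introns near their 3′ ends, and the study asks what its deficiency does to gene expression. The labels expand neither abbreviation and name no treatment, dose, time or further allele, so differences are given as libraries labelled SI against libraries labelled SINC. All of them come from 1 cell line, and nothing says whether the 3 libraries of a group were separate cultures, so p-values measure only the spread between libraries, which may be technical.

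U2AF2 itself stood at 285, 345 and 373 CPM (the usual depth-scaled read count, here with TMM factors) in libraries labelled SI and at 252, 284 and 205 CPM in those labelled SINC. The lower level was thus in the libraries labelled SINC (2-sided exact permutation p = 0.1, the smallest p that 3 against 3 allow; edgeR adjusted p = 0.653), and no direction below can be read as the effect of less U2AF2 from the labels alone. In the table the columns of the libraries labelled SI begin with N and those of the libraries labelled SINC with S. Whether the labels were exchanged was not tested, and an exchange would reverse every sign below. Library totals ran from 43333966 to 48976810 counts. Of 14 epithelial and ovarian carcinoma markers 3 had a row (KRT8, KRT18 and MUC1), which summed to 242 to 410 CPM in libraries labelled SI and 312 to 455 CPM in those labelled SINC. PAX8, WT1, MUC16 and EPCAM were among the 11 without one and were not analysed here. Of the markers of other cells, 4 of 10 for fibroblasts had a row (65.1 to 83.9 CPM in sum against 48.6 to 70.3 CPM), as did 1 of 10 for leukocytes (CD68) and 0 of 8 for endothelium.

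None of the 32 genes passed the test of a difference between the groups. In edgeR's quasi-likelihood test with Benjamini-Hochberg adjustment over all rows, 0 of 32 passed at 0.05, against 0.00836% of all rows (1 row, HERC3), and their adjusted p ran from 0.653 to 0.997. Limma-voom, and DESeq2 without its independent filtering, also called 0 of them. With that filtering DESeq2 gave none of the 32 an adjusted p, so it could call none. At an unadjusted p under 0.05 there were 2, FANCD2 and SLX4, which is 6.25% of the list where 7.37% of all rows lay under it. Both were higher in libraries labelled SI, the same 6.25% where 3.15% of all rows were, a difference of 1 gene. Leaving out 1 library at a time moved the count of 2 genes at an unadjusted p under 0.05, and the genes counted changed. It was 0 without replicate 1 labelled SINC, 1 (ATM) without replicate 2 labelled SINC and 1 (PALB2) without replicate 3 labelled SI. It was 3 without replicate 1 labelled SI (XRCC3, ATM and SLX4). Without replicate 2 labelled SI it stayed at 2, PALB2 and FANCD2. It was 4 without replicate 3 labelled SINC (PALB2, MRE11, FANCD2 and SLX4). The count over all 11957 rows, 881 with every library, moved as well. Without replicates 1, 2 and 3 labelled SINC it was 410, 384 and 1721. Without replicates 1, 2 and 3 labelled SI it was 761, 819 and 786. SLX4 was the 1 gene whose groups did not overlap, 3.13% of the list against 13.0% of all rows. On the log2 scale 21 genes lay above 0 and 11 below, with a median fold change of 0.08 where that of all rows was 0.04. These 21 are 65.6% of the list, and 54.3% of all rows lay above 0. The direction turned when 1 library was left out: without replicate 1 labelled SI 14 lay above 0 and the median was -0.07. The median of all rows in that fit was -0.0068. After a trend over transcript length and GC content was removed, 17 lay above 0. The list's median was then 0.02, and that of all rows -0.01. With scaling by library size only, 28 lay above 0 and the median was 0.28, where that of all rows was 0.22.

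The list was measured with moderate precision. For 21 of the 32 genes the 95% interval of the log2 fold change lay between -1 and 1, so a 2-fold difference in either direction was outside it. For 6 of them it also excluded 1.5-fold. The other 11 had wider or shifted intervals, and a 2-fold difference in at least 1 direction was within them. They are ATM, ATR, PALB2, BARD1, MRE11, NBN, RBBP8, BLM and FANCB, all under the list's median level, and FANCD2 and SLX4. For 26 of the 32 the difference between group means was smaller than the pooled standard deviation within groups, as it was for 64.5% of all rows.

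**Figure D1:**
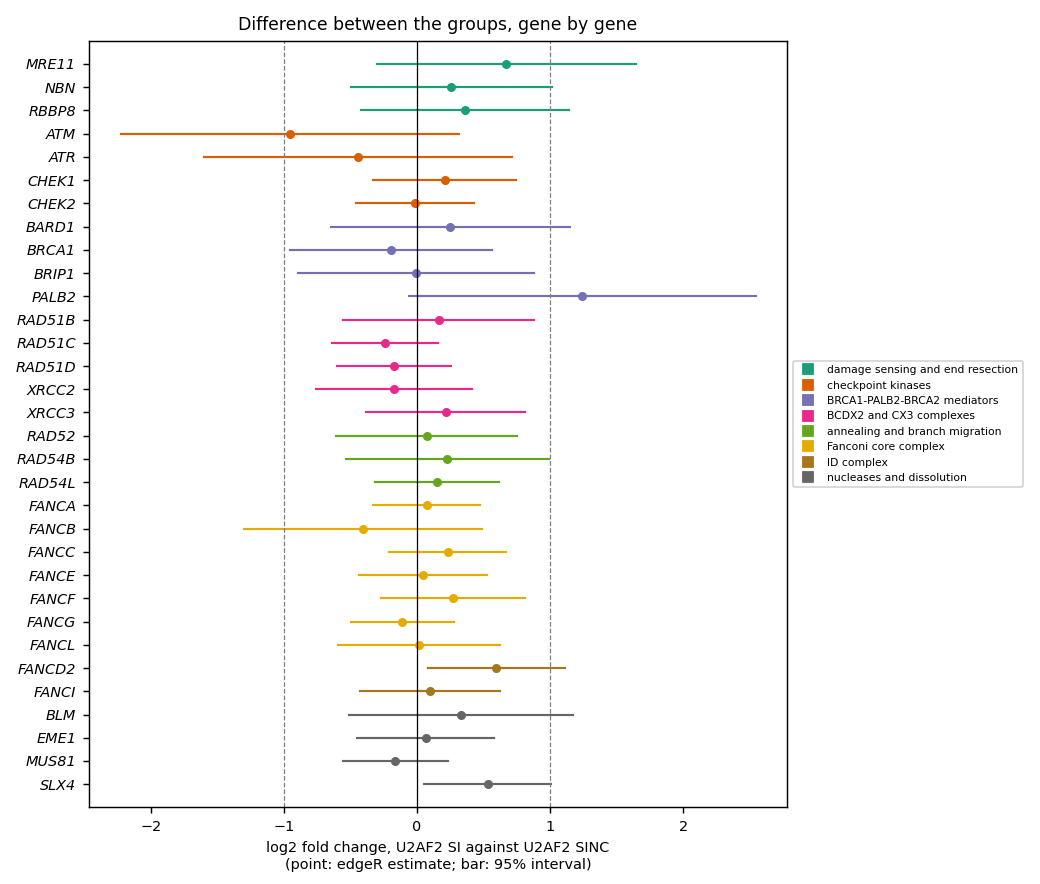
Log2 fold change of each of the 32 genes, libraries labelled U2AF2 SI against U2AF2 SINC (point, edgeR estimate; bar, 95% interval; n = 3 libraries each), with dashed lines at 2-fold. Only the bars of FANCD2 and SLX4 leave out 0, and neither gene passed the adjusted test.

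FANCD2 and SLX4 carried the smallest p of the list, and PALB2 and MRE11 the largest positive fold changes, so the 250 bases ahead of their annotated starts are shown (RefSeq, GRCh38.p14, read 5′ to 3′ along the gene). Capitals mark every match, on either strand, to CCGGAAGT (a core bound by ETS factors, ACTTCCGG on the other strand), CCAAT (the box bound by NF-Y, ATTGG on the other strand) and GGGCGG (the GC box, CCGCCC on the other strand). The window of FANCD2 is chr3:10026187-10026436 on the plus strand, and those of SLX4, PALB2 and MRE11 are chr16:3611607-3611856, chr16:23641311-23641560 and chr11:94493845-94494094, all on the minus strand.
FANCD2: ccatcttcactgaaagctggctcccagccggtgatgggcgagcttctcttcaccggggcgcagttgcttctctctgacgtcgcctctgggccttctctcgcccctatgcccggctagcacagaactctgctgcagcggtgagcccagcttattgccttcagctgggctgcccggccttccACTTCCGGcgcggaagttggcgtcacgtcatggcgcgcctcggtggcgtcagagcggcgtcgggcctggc
SLX4: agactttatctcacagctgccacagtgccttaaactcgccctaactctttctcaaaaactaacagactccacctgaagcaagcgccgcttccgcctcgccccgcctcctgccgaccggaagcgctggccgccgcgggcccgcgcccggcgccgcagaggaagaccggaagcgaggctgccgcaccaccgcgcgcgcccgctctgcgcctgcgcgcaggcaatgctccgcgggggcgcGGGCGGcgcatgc
PALB2: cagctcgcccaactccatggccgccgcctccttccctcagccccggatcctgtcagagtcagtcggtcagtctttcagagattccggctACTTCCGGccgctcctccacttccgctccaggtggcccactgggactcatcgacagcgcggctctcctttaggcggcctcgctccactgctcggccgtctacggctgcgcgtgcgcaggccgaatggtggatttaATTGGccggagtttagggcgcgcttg
MRE11: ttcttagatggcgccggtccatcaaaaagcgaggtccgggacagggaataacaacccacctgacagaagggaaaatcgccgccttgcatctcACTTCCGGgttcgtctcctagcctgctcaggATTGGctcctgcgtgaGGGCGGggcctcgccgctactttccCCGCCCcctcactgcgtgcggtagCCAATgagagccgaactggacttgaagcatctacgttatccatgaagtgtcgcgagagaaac

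FANCD2, PALB2 and MRE11 each hold 1 match to CCGGAAGT, at positions -70, -161 and -158 from the start, and SLX4 holds none. Only exact matches were counted, so a window without this string, as in SLX4, may hold a near match. Across the 29 measured genes with a window in the table, 4 had this match, EME1 being the fourth, against 3.42% of 35116 windows of the same length. Those 35116 were counted by window and not limited to measured genes, while the 29 were counted by gene, so the 2 are not like for like. EME1 had a log2 fold change of 0.06. CCAAT was found in 13 of the 29 (32% of all windows) and GGGCGG in 21 (42.6%). Of the sequences TTTGGCGC, TTTCCCGC, TTTCGCGC and TTTGCCGC, which E2F factors can bind, at least 1 was found in 2 genes, FANCA and FANCC (2.79% of all windows). TTTGAA, the cell cycle homology element, was found in ATM, BRIP1 and FANCC (13.3%). Both strands were searched for each motif and matches to different motifs were counted independently. They describe letters in a window and were not tested against the counts.

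FANCD2 and FANCI form the clamp that the Fanconi core complex marks with ubiquitin at a crosslink. FANCD2 stood at 44.3, 29.2 and 39.8 CPM in libraries labelled SI and at 20.4, 22.7 and 31.8 CPM in those labelled SINC. All but replicate 2 labelled SI lay above all 3 labelled SINC, so the groups overlapped. The means were 37.8 ± 7.78 and 25.0 ± 6.05 CPM (SD, n = 3 each), a log2 fold change of 0.60 ± 0.23 (SE) with its 95% interval of 0.08 to 1.11 and an edgeR adjusted p of 0.653. Its partner FANCI, at 51.8, 33.9 and 48.4 CPM against 44.1, 29.9 and 51.4 CPM, had a log2 fold change of 0.10 ± 0.24 (SE), and the difference between the partners was not tested. Replicate 2 was the lowest of both groups for FANCI.

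SLX4 is the scaffold that holds the nucleases of crosslink unhooking and of Holliday junction cutting. It stood at 14.8, 16.8 and 15.0 CPM in libraries labelled SI and at 10.0, 10.1 and 12.2 CPM in those labelled SINC, with every library of the first group above every library of the second. The log2 fold change was 0.53 ± 0.22 (SE; 95% interval 0.05 to 1.01; edgeR adjusted p = 0.653), and the exact permutation p was 0.1. MUS81, the nuclease that SLX4 binds, had the highest level of the list per length, 44.1 CPM per kb of transcript, with 84.4, 121 and 93.7 CPM against 115, 112 and 107 CPM (log2 fold change -0.16 ± 0.18 SE). MUS81 shares 759 exon bases with CFL1 on the opposite strand, and no source used here says whether counting used strand, so its level is uncertain. EME1, the partner subunit of MUS81, lay between 9.23 and 12.4 CPM in all 6 libraries and differed by 0.06 ± 0.24 (SE). It shares 541 exon bases with LRRC59, also on the opposite strand. BLM, the helicase that dissolves double Holliday junctions, ran from 2.27 to 6.32 CPM (0.33 ± 0.38 SE).

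Among the genes that sense and process the break, MRE11, the nuclease of the MRN complex, stood at 9.37, 4.04 and 3.80 CPM in libraries labelled SI and at 2.54, 2.67 and 5.59 CPM in those labelled SINC. A single library, replicate 1 labelled SI, was far above the rest. The log2 fold change of 0.67 ± 0.44 (SE; edgeR adjusted p = 0.72) was 0.11 without it, and 1.14 without replicate 3 labelled SINC. NBN, which brings ATM to the break, showed the same library on top at 12 CPM, with 5.65 and 5.96 CPM in the other two and 6.63, 5.11 and 8.02 CPM in those labelled SINC. Its log2 fold change was 0.26 ± 0.34 (SE) with all libraries and -0.19 without that one. RBBP8, which encodes the resection factor CtIP, was at 11.3 CPM there and between 3.63 and 8.74 CPM elsewhere, and its log2 fold change went from 0.36 ± 0.36 (SE) to 0.09.

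The kinases that relay the break signal divided by size of spread. ATM, the kinase of double-strand breaks, stood at 8.03, 2.5 and 2.65 CPM in libraries labelled SI and at 15.8, 3.19 and 6.60 CPM in those labelled SINC. ATR, the kinase of stalled forks, stood at 3.33, 1.47 and 2.49 CPM against 6.19, 1.51 and 2.23 CPM. Replicate 1 was the highest of its group for both kinases in both groups. Highest against lowest library came to 6.32-fold for ATM and 4.20-fold for ATR. The log2 fold change of ATM was -0.96 ± 0.58 (SE; 95% interval -2.23 to 0.32; edgeR adjusted p = 0.71). Without replicate 1 labelled SINC it was -0.15, and without replicate 1 labelled SI it was -1.74. For ATR the value was -0.44 ± 0.53 (SE), and 0.38 without replicate 1 labelled SINC. The effector kinases were steadier. CHEK1, downstream of ATR, was at 14.2, 10.7 and 11.6 CPM against 8.94, 9.88 and 12.8 CPM (0.21 ± 0.25 SE). CHEK2, downstream of ATM, averaged 41.9 ± 6.85 and 42.3 ± 7.37 CPM (SD, n = 3 each), a log2 fold change of -0.02 with a 95% interval of -0.46 to 0.43.

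**Figure D2:**
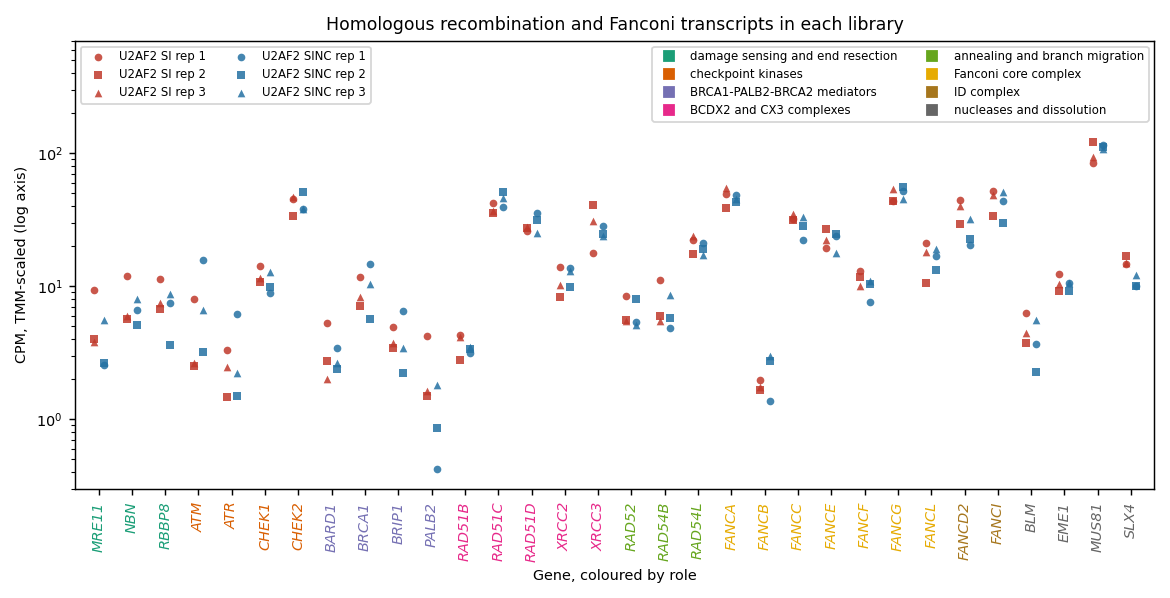
Level of each gene in each of the 6 libraries (CPM on a log axis; red, labelled U2AF2 SI; blue, labelled U2AF2 SINC; marker shape, replicate number). ATM, ATR, PALB2 and MRE11 spread widest, with 3.68-fold to 10.0-fold between highest and lowest library, while FANCG, EME1 and MUS81 stay within 1.43-fold.

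BRCA1 and its partners mediate the step from the resected end to strand exchange. BRCA1 stood at 11.7, 7.05 and 8.26 CPM in libraries labelled SI and at 14.7, 5.71 and 10.5 CPM in those labelled SINC. Replicate 1 was the highest of each group and the range of those labelled SI lay within that of those labelled SINC. The means were 8.99 ± 2.39 and 10.3 ± 4.50 CPM (SD, n = 3 each), with a log2 fold change of -0.20 ± 0.35 (SE; 95% interval -0.96 to 0.56; edgeR adjusted p = 0.895). It turned to 0.15 without replicate 1 labelled SINC. BRIP1, a helicase that binds BRCA1, had the same order of libraries labelled SINC (6.49, 2.25 and 3.41 CPM) and a log2 fold change of -0.01 ± 0.40 (SE). BARD1, the ubiquitin ligase partner of BRCA1, was highest in replicate 1 labelled SI at 5.27 CPM, with 2.02 to 3.41 CPM elsewhere. PALB2, the bridge between BRCA1 and BRCA2, had the largest fold change of the list and nearly the lowest level, 0.434 CPM per kb of transcript. It held 4.22, 1.49 and 1.62 CPM in libraries labelled SI and 0.420, 0.865 and 1.81 CPM in those labelled SINC, which rest on 217, 74, 69, 18, 35 and 83 counts. Replicate 3 labelled SINC lay above 2 of the libraries labelled SI. The log2 fold change was 1.24 ± 0.59 (SE; 95% interval -0.06 to 2.54; edgeR adjusted p = 0.678), and it was 0.57 without replicate 1 labelled SI and 1.93 without replicate 3 labelled SINC.

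The BCDX2 complex (RAD51B, RAD51C, RAD51D and XRCC2) and the pair of RAD51C with XRCC3 assist strand exchange. All 5 were measured, 2 above 0 and 3 below, and their log2 fold changes ran from -0.24 to 0.21. RAD51C was at 42.3, 35.7 and 36.8 CPM against 39.2, 50.9 and 45.8 CPM (-0.24 ± 0.18 SE; 95% interval -0.64 to 0.15). RAD51D stood at 26.2, 27.2 and 28.1 CPM against 35.3, 31.6 and 25.0 CPM (-0.17 ± 0.20 SE), a tight group beside a loose one. RAD51B was the least abundant, at 2.79 to 4.30 CPM. XRCC2 lay between 8.24 and 14.0 CPM. For XRCC3, replicate 1 labelled SI was the lowest at 17.9 CPM and replicate 2 the highest at 40.8 CPM. XRCC3 shares 5756 of 7507 exon bases with KLC1 on the opposite strand and is uncertain for the same reason as MUS81.

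The 3 genes of strand annealing and branch migration had log2 fold changes of 0.07 to 0.23. RAD54L, the motor that works on the joint molecule, averaged 21.2 ± 3.33 and 19.1 ± 2.08 CPM (SD, n = 3 each; log2 fold change 0.15 ± 0.21 SE). RAD54L shares 806 of 3212 exon bases with LRRC41 on the opposite strand and is uncertain for the same reason as MUS81. RAD54B, the relative of RAD54L, was at 11.1 CPM in replicate 1 labelled SI and at 4.88 to 8.57 CPM in the other libraries. RAD52, which anneals single strands, was at 8.38 and 8.05 CPM in replicate 1 labelled SI and replicate 2 labelled SINC and between 5.09 and 5.53 CPM in the other 4.

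The Fanconi core complex is the ligase assembly that modifies FANCD2 and FANCI. Of 8 listed genes 7 were measured, 5 above 0 and 2 below, with log2 fold changes from -0.41 to 0.27. FANCL, the ligase subunit itself, averaged 16.6 ± 5.46 and 16.5 ± 2.92 CPM (SD, n = 3 each; log2 fold change 0.01 ± 0.28 SE). FANCA was at 49.4, 39.0 and 54.9 CPM against 48.1, 43.0 and 45.2 CPM, with a 95% interval of -0.33 to 0.47. Its partner FANCG was the steadiest gene of the list, with 1.27-fold between highest and lowest library (-0.11 ± 0.18 SE). FANCC stood at 31.8, 31.3 and 34.9 CPM against 22.3, 28.3 and 33.0 CPM (0.23 ± 0.20 SE). FANCE, which contacts FANCD2, was at 17.9 to 26.9 CPM (0.04 ± 0.22 SE). FANCF, an adaptor encoded by a gene without introns, was at 13.0, 11.7 and 10.0 CPM against 7.61, 10.3 and 10.9 CPM (0.27 ± 0.25 SE). FANCB, at 1.38 to 2.99 CPM, had the lowest value of the complex (-0.41 ± 0.41 SE). FANCA shares 2302 of 9736 exon bases with ZNF276 on the opposite strand, and FANCL shares 452 of 2412 with VRK2, also on the opposite strand. In all, 11 of the 32 genes share exon bases with another row of the table, 10 of them only on the opposite strand and CHEK1 with STT3A on the same strand (80 bases).

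The libraries of a group differed among themselves in a shared way. Replicate 1 labelled SI was the highest of the 6 libraries for 16 of the 32 genes, and 26 lay above their mean in it. Relative to the mean of the 6 libraries, the list's median on the log2 scale was 0.31 in that library and -0.15 and -0.0030 in the other two labelled SI, against 0.05, -0.19 and 0.07 in those labelled SINC. Over all rows these medians lay between -0.01 and 0.04. The genes highest in replicate 1 labelled SINC were 5: ATM, ATR, BRCA1, BRIP1 and RAD51D.

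**Figure D3:**
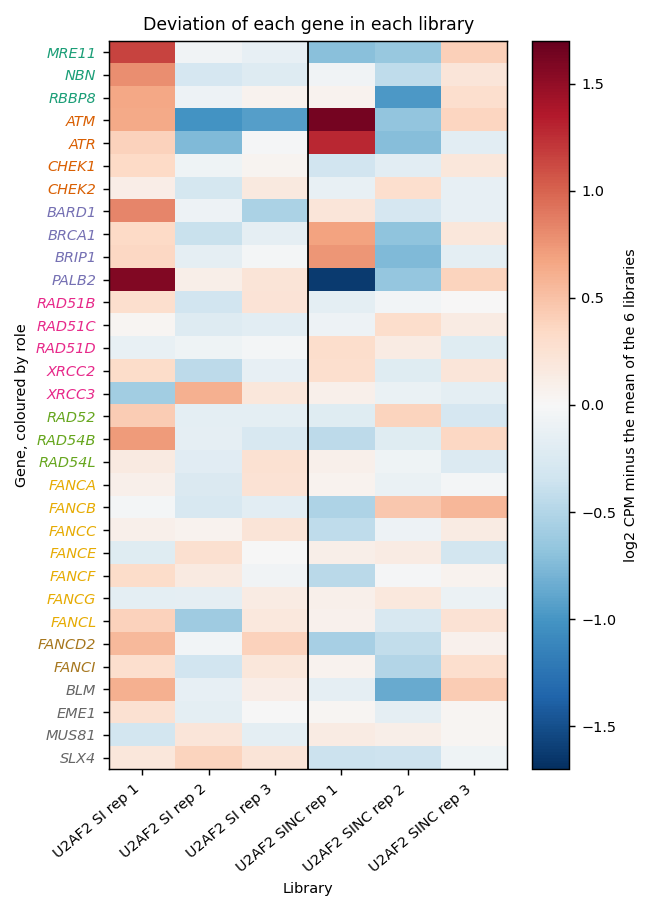
Log2 CPM of each gene minus its mean over the 6 libraries (red above, blue below; the line separates the groups). The column of replicate 1 labelled U2AF2 SI is mostly red, with 26 of 32 genes above their mean, and ATM and ATR stand out in replicate 1 labelled U2AF2 SINC.

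Base composition ran along with these shifts. The 32 transcripts had a median GC content of 43.1% against 49.6% for all rows, from 36.7% in FANCB to 62.5% in XRCC3. Across the 32 genes the deviation in replicate 1 labelled SI was lower at higher GC content (Spearman rho = -0.70, a description over genes that share 1 library; -0.72 over all rows). In the 16 genes of lowest GC content, up to 42.8%, the median deviation was 0.50 in that library and -0.54 in replicate 2 labelled SINC. It was -0.19 and -0.14 in replicates 2 and 3 labelled SI and 0.23 in replicate 3 labelled SINC. In the 16 genes of highest GC content, from 43.3%, all 6 medians lay between -0.11 and 0.18. The 16 of lowest GC content include MRE11, NBN, RBBP8, ATM, ATR, BARD1, BRIP1, BRCA1 and PALB2, and the other 16 include FANCD2, SLX4, MUS81, FANCA, FANCE and FANCG. Transcript length ran along with the deviation in replicate 2 labelled SINC (rho = -0.63, longer transcripts lower) and in replicate 1 labelled SI (rho = 0.39), and rho was between -0.07 and 0.20 in the other 4. In replicate 1 labelled SINC rho of the deviation with GC content was 0.04 over the list and 0.21 over all rows. With length, rho over the list was 0.20 there. ATM and ATR lay 1.62 and 1.28 above their mean in that library. The 5 genes highest in it had transcripts of 6048 to 13147 nt. SLX4 and MRE11, at 7307 and 6897 nt, deviated by -0.36 and -0.71 in it. Whether length or GC content bears on these values was not tested. After a loess trend over length and GC was taken out of every library, the log2 fold change was 0.38 for FANCD2, 0.36 for SLX4, 1.05 for PALB2, 0.45 for MRE11, -1.09 for ATM and -0.39 for BRCA1, and 0 of the 32 passed. In that fit ATM and FANCD2 were the members at an unadjusted edgeR p under 0.05, a level that 899 of all rows reached, and SLX4 was not. What produced the relation to GC content was not tested.

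**Figure D4:**
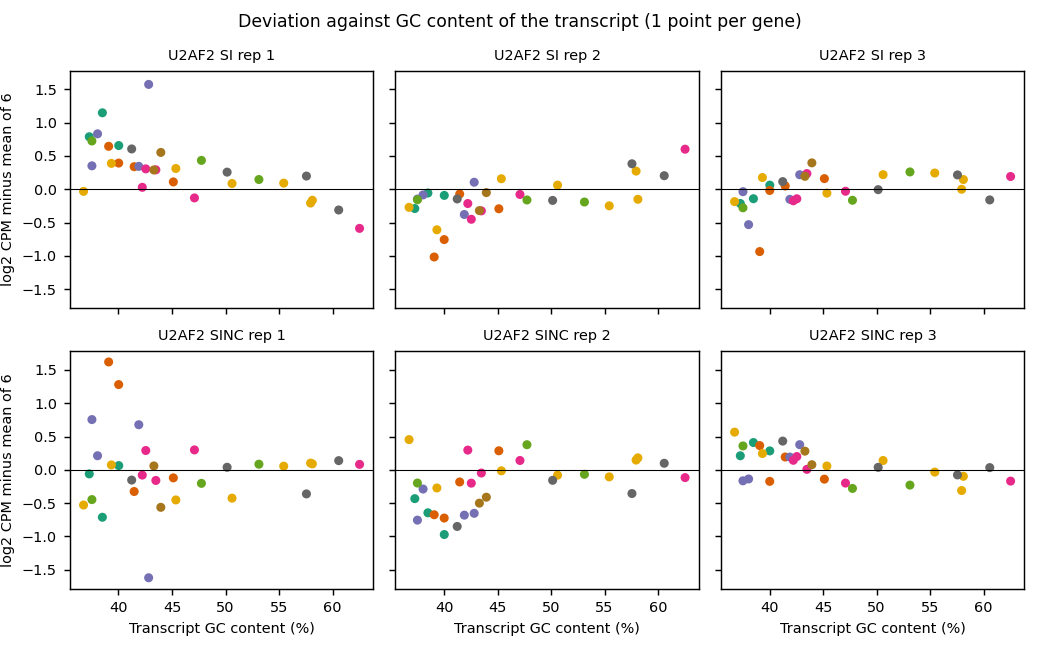
Deviation of each gene (log2 CPM minus the mean of the 6 libraries) against the GC content of its transcript, 1 panel per library. Points fall to the right in replicate 1 labelled U2AF2 SI (rho = -0.70) and in replicate 3 labelled U2AF2 SINC (rho = -0.59), and rise in replicates 2 and 3 labelled U2AF2 SI (rho = 0.45 and 0.53) and replicate 2 labelled U2AF2 SINC (rho = 0.48).

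Genes that work beside the list were read from 9 further lists with 145 measured genes. None passed in edgeR over all rows, and 18 (12.4%) had an unadjusted p under 0.05, against the 7.37% of all rows given above. Among 30 partners of recombination and end processing 1 was higher and 4 lower at that level. Over all rows 881 reached that level, 377 of them higher in libraries labelled SI. SEM1, the small acidic protein that binds BRCA2, was at 71.1, 43.8 and 87.4 CPM in libraries labelled SI and at 114, 133 and 107 CPM in those labelled SINC (-0.81 ± 0.24 SE, edgeR adjusted p = 0.653), with no overlap. RPA3, the smallest subunit of the single-strand binding protein, had -0.59 ± 0.22 (SE). Transcripts of SEM1 and RPA3 measure 1314 and 2020 nt. The median was 2785.5 nt for their list, 3648 nt for the 32 genes and 3107 nt for all rows. Among 13 Fanconi accessory genes, the ligase RFWD3, at 4957 nt, had 0.46 ± 0.18 (SE). CENPX, at 805 nt, had -0.62 ± 0.24 (SE). Whether transcript length bears on the values of these genes was not tested.

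The lists that oppose or guard recombination gave values in both directions. Of 14 genes of end joining and resection control, 4 lay above 0, where 54.3% of all rows did. DYNLL1, a partner of 53BP1, had -0.52 ± 0.21 (SE), and PRKDC, the catalytic kinase of end joining, had 0.66 ± 0.27 (SE). In single-strand break repair 0 of 13 had an unadjusted p under 0.05, against 7.37% of all rows. PARP1, the main target of PARP inhibitors, was at 228, 207 and 237 CPM against 162, 170 and 206 CPM (0.32 ± 0.17 SE, edgeR adjusted p = 0.696). Of 19 checkpoint partners 2 were higher and 0 lower at that level, where 3.15% of all rows were higher. MDC1, the scaffold of the marked break, had 0.42 ± 0.18 (SE), and WEE1, which restrains CDK1, 0.58 ± 0.25 (SE). MSH6 led the 6 measured mismatch repair genes with 0.41 ± 0.18 (SE), followed by MLH3 at -0.42 ± 0.46 (SE), and of 11 genes of nucleotide excision repair, XPC and RAD23B leading at 0.32 and 0.24, 0 reached that level.

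The last lists hold regulators and proliferation genes. Of 15 genes that control transcription of the recombination genes, 13 lay above 0 (median log2 fold change 0.29) and 3 had an unadjusted p under 0.05, all higher in libraries labelled SI, where 54.3% of all rows lay above 0 and 3.15% were higher at that level. They include FOXM1, a mitotic transcription factor, at 0.45 ± 0.18 (SE), and CDK12, the kinase needed for full-length transcripts of long repair genes, at 29.5, 21.9 and 27.0 CPM against 17.6, 14.2 and 22.7 CPM (0.52 ± 0.23 SE, edgeR adjusted p = 0.655). Of 24 proliferation genes 16 lay above 0 (median 0.13), with UHRF1 at 0.50 ± 0.17 (SE) and MKI67 at 0.71 ± 0.27 (SE). In bulk libraries a change in the share of cycling cells and a change in RNA per cell cannot be told apart.

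**Figure D5:**
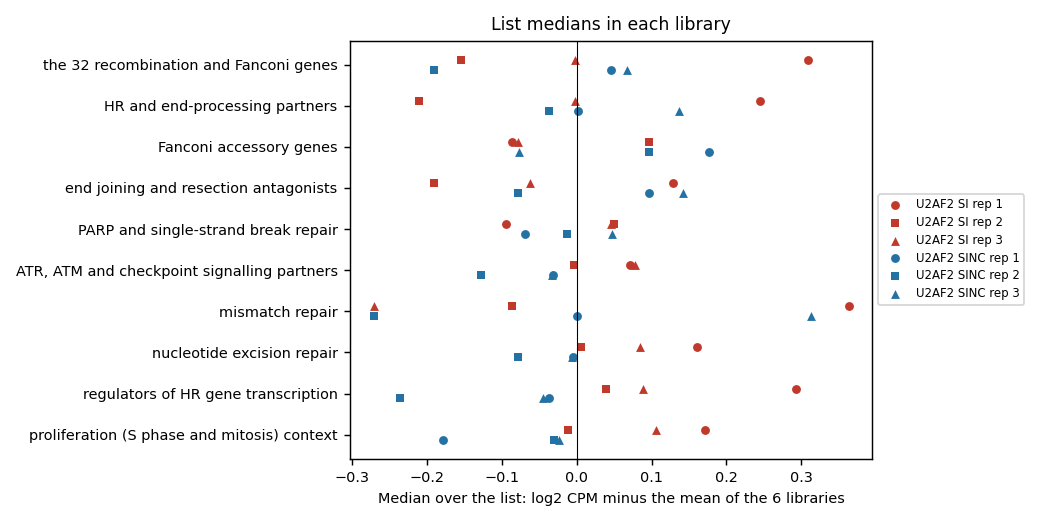
Median deviation of the 32 genes and of each neighbouring list in each library (log2 CPM minus the mean of the 6 libraries; red, labelled U2AF2 SI; blue, labelled U2AF2 SINC; shape, replicate number). For the 32 genes replicate 1 labelled U2AF2 SI stands at 0.31 and the other 5 libraries between -0.19 and 0.07.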

How the data were processed

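Whole-number read counts were deposited by the authors in 1 table, with genes and assembled loci as rows, and were used as raw counts. Per the submitters' processing notes CASAVA and StringTie were used. No source used here gives their versions, the aligner, the build or the annotation. Per the labels' protocols, the libraries were strand-specific by dUTP. The lowest row averaged 31 counts per library, and genes without a row were not analysed here. Totals are given in the report, and depth limits the least abundant members, PALB2 down to 18 counts.

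The fit over all 11957 rows used edgeR 4.0.16 under R 4.3.3 (TMM, filterByExpr, glmQLFit, glmQLFTest, group as the only term), with Benjamini-Hochberg adjustment over all rows and a threshold of 0.05. Common biological variation was 27%. SEs came from the F statistic. Deviations used log2 CPM with a prior count of 2. Within groups, chi-square per degree of freedom between libraries was 56.0 to 170, so none was another library of its group sequenced again. That value cannot tell separate cultures from repeat preparations of the same RNA. The test was checked on simulated data. Members, lists and motifs were chosen with earlier results of these data known. Named genes were all members, U2AF2 and 2 genes per further list with the smallest p, of which 1 is not reported here. Values per library were set for members at an unadjusted p under 0.05, without overlap, or BRCA1 and BRCA2; the others shown that way, and the promoters, were chosen after values were seen. Transcript lengths and GC content come from the longest APPRIS principal transcript in GENCODE 29 (94.7% of rows matched). Alternatives were other scalings and filters, the replicate block, DESeq2 1.42.0, limma-voom (limma 3.58.1), omission of assembled loci, 16 merged Ensembl rows, a loess trend (span 0.3), and omission of each library. RAD51D has a long principal transcript, so no level per length is given for it.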

Additional observations from a re-analysis of the deposited data

How the results depend on the processing

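0 of the 32 genes passed over all rows under any alternative that tested them. Only 24 were tested at a mean of at least 5 CPM. None was in DESeq2 with independent filtering, which gave 1062 rows an adjusted p. The alternative without a filter repeated the reported fit, since filterByExpr removed none of the 11957 rows. Of the neighbouring list genes (23 with an adjusted p in that setting) 0 passed under the 18 alternatives. The list median, 0.08, ran from -0.07 (without replicate 1 labelled SI) to 0.28 (library size alone). The count of rows that passed, 1 as reported, was 0 with upper-quartile scaling, library size alone, a mean of at least 5 CPM, merged Ensembl rows and the length and GC trend removed, 61 in DESeq2 and 4 without its independent filtering, and 0 to 2 without 1 library. Members at an unadjusted p under 0.05 numbered 0 (without replicate 1 labelled SINC) to 4 (without replicate 3 labelled SINC). Of all rows 410 and 1721 lay under it in those fits. The deviations of same-numbered libraries correlated at -0.09, 0.25 and -0.31, and replicate 2 alone correlated best with its own number, which falls short of showing a pairing. With the replicate number as a block 2 rows passed, and the 2 members under 0.05 were ATM and FANCD2.

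In 14 of 32 genes the sign held under every alternative that tested the gene, FANCD2, SLX4, PALB2, MRE11 and ATM among them. PALB2 and MRE11 were not tested at a mean of at least 5 CPM. Signs turned under scaling by library size only, where the median of all rows went to 0.22 (BRCA1 0.0067, BRIP1 0.21, RAD51D 0.025, XRCC2 0.021, CHEK2 0.18, FANCG 0.073, MUS81 0.021). They also turned with RLE scaling and DESeq2 (FANCL -0.0031 in both), the block (BRIP1 0.11, FANCL -0.029), limma-voom (BRIP1 0.11, FANCL -0.037) and the trend removed (BARD1 -0.00015, RAD52 -0.043, FANCA -0.12, FANCI -0.10). Without 1 library the log2 fold change ran from -0.49 to 0.15 for BRCA1, -0.25 to 0.51 for BARD1, -0.30 to 0.51 for BRIP1, -0.17 to 0.31 for RAD52, -0.18 to 0.50 for RAD54B, -0.41 to 0.00052 for XRCC2, -0.071 to 0.46 for XRCC3, -0.19 to 0.46 for NBN, -0.79 to 0.38 for ATR, -0.10 to 0.14 for CHEK2, -0.041 to 0.21 for FANCA, -0.090 to 0.14 for FANCE, -0.10 to 0.28 for FANCI, -0.20 to 0.27 for FANCL and -0.071 to 0.17 for EME1. Apart from the omissions, whose construction shows it, the cause was not tested.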
